A study of Mus musculus with 17 samples.

Results

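CpG-poor DNA that is partly methylated in the blood of young mice was followed into old age under ad libitum (AL) feeding and caloric restriction (CR). A depth of 100 reads or more in no fewer than 13 of the 17 mice was reached at 15742 autosomal CCCGGG sites, of which 1185 (7.53%) met the rule. Their mean methylation over the AL-young mice was from 20 to 80%, and the 500 bp around them had a GC content below 50% or an observed over expected CpG ratio below 0.6. The sites were therefore chosen by their raw methylation in the 5 AL-young mice. Every comparison of those mice with another group is given as a description without a test. The site-by-site test between the old groups did hold them in its fit. This depth was reached in every one of the 17 mice at 828 of the 1185 sites, and the means per mouse rest on these 828. The other 357 sites missed between 1 and 4 mice. At the lower limit of the rule, sites with an AL-young mean of 20.01 and 20.09% were just inside and sites with 19.95 and 19.88% just outside. At the upper limit, 79.993 and 79.991% were inside and 80.003 and 80.04% outside.

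The assay was DREAM, which reads methylation at CCCGGG by cutting with an enzyme that is blocked by methylation and then with one that is not. The blood came from C57BL/6 mice, an inbred strain, and was not sorted. The 5 AL-young mice were 4 months old (2 females, 3 males) and the 7 AL-old mice were 29 to 30 months (5 females) or 33 months (2 males), all with food ad libitum. The 5 CR-old mice were calorie restricted and aged 32 months (2 females) or 34 to 38 months (3 males). Each mouse is named by its number, as in AL-old 13, and contributed 1 sample. The 2 old groups differ in age and in sex make-up as well as in diet, and their diet difference cannot be told apart from these.

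In mammals most CpGs outside CpG islands are methylated and most islands are not. A site with an intermediate level in a mixture of cells can be methylated in some cell types and not in others, on 1 parental copy only, as at imprinted genes, or in a random part of the cells. Blood holds neutrophils, monocytes, B cells, T cells and natural killer (NK) cells, whose genes are methylated differently in each lineage. In whole blood a shift in the share of a cell type and a change within cells cannot be told apart, and no cell counts were analysed here.

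Sequences of 8 sites called between the old groups are shown because the level of the central CpG carries the comparisons that follow. Each line gives 100 bases of the plus strand of NCBIM37 (mm9), with the CCCGGG that is measured in capitals.
Intergenic, chr5:147490645-147490744: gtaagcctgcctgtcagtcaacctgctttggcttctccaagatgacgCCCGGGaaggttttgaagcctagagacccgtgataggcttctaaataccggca
Rcsd1 intron, chr1:167593023-167593122: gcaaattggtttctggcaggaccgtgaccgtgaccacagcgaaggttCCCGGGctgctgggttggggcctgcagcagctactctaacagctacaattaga
Cmah promoter, chr13:24508934-24509033: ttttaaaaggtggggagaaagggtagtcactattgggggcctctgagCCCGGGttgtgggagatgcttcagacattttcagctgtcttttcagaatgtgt
Ncf1 intron, chr5:134702950-134703049: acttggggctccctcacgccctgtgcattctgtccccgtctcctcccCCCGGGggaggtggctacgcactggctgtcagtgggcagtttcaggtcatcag
Scml4 intron, chr10:42619598-42619697: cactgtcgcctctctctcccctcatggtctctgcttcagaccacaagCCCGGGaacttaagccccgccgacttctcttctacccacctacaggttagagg
Lima1 intron, chr15:99634149-99634248: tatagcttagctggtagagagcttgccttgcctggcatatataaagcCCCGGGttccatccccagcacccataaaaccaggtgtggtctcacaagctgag
Mef2b coding exon, chr8:72690023-72690122: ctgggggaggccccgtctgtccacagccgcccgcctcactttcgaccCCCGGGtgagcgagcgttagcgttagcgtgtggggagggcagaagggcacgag
Cyba intron, chr8:124951643-124951742: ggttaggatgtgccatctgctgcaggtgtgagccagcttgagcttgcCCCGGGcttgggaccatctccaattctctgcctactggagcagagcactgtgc
The Cmah, Lima1 and Cyba stretches hold 1 CpG in 100 bases, the measured one, and the Mef2b stretch holds 10. For contrast, Gnas, an imprinted gene methylated by parental copy, is shown at 1 of its 3 sites.
Gnas coding exon, chr2:174125105-174125204: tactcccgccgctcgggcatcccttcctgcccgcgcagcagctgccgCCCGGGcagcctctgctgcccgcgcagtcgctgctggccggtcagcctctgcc
This stretch holds 11 CpGs at a GC content of 76%.

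The authors corrected each mouse with spiked DNA standards, which multiplied the odds of methylation by 1 constant per mouse. This factor was at least 1.3 in 6 female mice, all 5 of the AL-old group and CR-old 06 (1.40 to 3.96), and 0.872 to 1.13 in the other 11. Sex and correction cannot be told apart in the AL-old group. The standards Kan 1 and Luc 1 read lower in the 6 mice than in the other 11 before adjustment (11.6 and 13.9% against 33.7 and 26.9%), whereas Gfp 1 read alike (41.7 against 40.8%) and after adjustment read 60.7 against 40.7%. Adjustment brought the other standards closer, to 20.6 against 33.6% for Kan 1 and 24.5 against 26.8% for Luc 1. Intermediate levels are where this odds correction moves a value most, so the summaries over all sites are given on the adjusted (main) and the raw scale, and the values of single sites are adjusted unless called raw. The median depth at the 828 sites ran from 266 reads in AL-old 08 to 2641 in AL-young 30, and at 100 reads a 50% site has a 95% Wilson interval from 40.4 to 59.6%. This interval covers counting error only.

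The AL-young means of the 1185 sites had a median of 58.3%, with 294 sites below 40%, 330 from 40 to 60% and 561 above 60%. By position, 470 (39.7%) lay in introns, 443 (37.4%) were intergenic, 146 (12.3%) lay in promoters, 80 in coding exons and 46 in other exons. Promoters thus held a larger share than among the 3565 CpG-poor sites above 80% in AL-young mice (6.87%) and a smaller one than among the 2096 CpG-poor sites below 20% (46.7%). The windows had a median GC content of 53%, a median CpG ratio of 0.282 and a median of 10 CpGs in 500 bp, close to those of the young-methylated sites (51.8%, 0.285 and 9). Although the windows were CpG-poor, 171 sites (14.4%) fell in a stretch of at least 200 bp called as a CpG island and a further 568 (47.9%) lay within 2000 bp of one, against 13.8 and 39.6% of the young-methylated sites. The median distance to a transcription start was 8790 bp.

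Short motifs of blood transcription factors were counted on both strands of each 500-bp window. The ETS letters GGAAGT were present in 31.8% of the 1185 windows, in 24.6% of the young-methylated CpG-poor windows, in 33.2% of the young-unmethylated ones and in 25.1% of all 15742. The E-box CAGCTG, bound by E2A and other factors, was present in 36.2, 29.4, 30.5 and 27.3%. The EBF1 core CCCNNGGG was present in 45.1, 40.4, 47.2 and 50.2%. The other 6 differed by less than 2 points from the young-methylated windows. These were the letters AGATAA of the GATA factors (18.6 against 17.7%), RUNX (TGTGGT, 32.2 against 30.8%), CEBP (TTGCNNAA, 16.5 against 17.4%), AP-1 (TGANTCA, 11.7 against 11.4%), PU.1 (GAGGAAGT, which contains the ETS letters, 3.38 against 2.75%) and the CTCF core (CCACNAGG, 10.1 against 9.90%). A match is a description of letters and not of binding.

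The mean level of the sites was similar in the 2 old groups. Adjusted means over the 828 sites were 53.6, 52.5, 55.5, 57.3 and 56.4% in AL-young 15, 16, 28, 29 and 30. AL-old mice ran from 43.2% in AL-old 27 through a median of 50.5% to 53.2% in AL-old 14. CR-old 02, 06, 19, 20 and 22 had 50.2, 53.7, 48.9, 49.6 and 50.6%. The old groups overlapped, at 49.9 ± 3.24% (SD, n = 7) and 50.6 ± 1.83% (n = 5). Their difference was 0.68 points, within an interval from -2.5 to 4.4 points (95%, from inverting the exact permutation test; two-sided exact permutation p = 0.75 over 792 relabellings). The sign of this difference was negative without AL-old 27 or without CR-old 06. On the raw scale the AL-old means fell to between 29.4 and 54.2%, and the difference was 6.97 points (exact permutation p = 0.138, n = 7 and 5). AL-old mice averaged 5.14 points below AL-young mice on the adjusted scale, with a wider gap on the raw scale, as 54.3 against 41.3%.

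**Figure D1:**
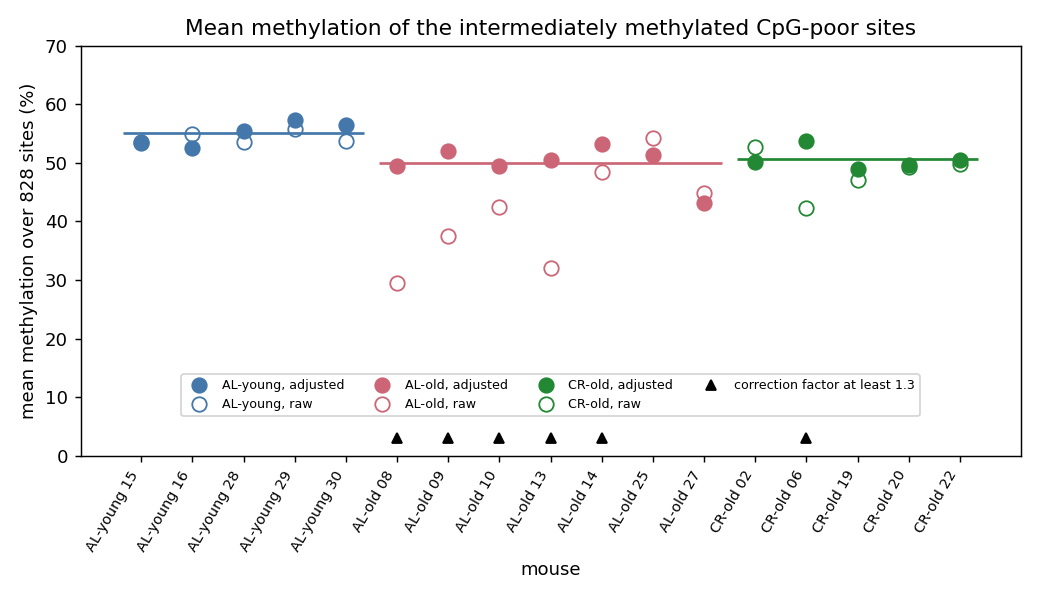
Mean methylation in percent over 828 CpG-poor sites with intermediate methylation in AL-young blood, 1 column per mouse. Filled points are adjusted and open points raw values, horizontal lines are group means of the adjusted values, and triangles mark a correction factor of at least 1.3. Adjusted means of the old groups overlap (43.2 to 53.2% and 48.9 to 53.7%), and raw means of AL-old mice reach down to 29.4%.

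The sites were also grouped by their AL-young level, which fixes the AL-young values, so the age steps are a description. For the 222 sites with an AL-young mean below 40%, adjusted means were 30.8% in AL-young, 31.4% in AL-old and 29.9% in CR-old mice. For the 241 sites between 40 and 60% they were 51.7, 47.2 and 46.6%, and for the 365 sites above 60% they were 72.0, 63.0 and 65.8%. The diet differences were -1.46, -0.56 and 2.81 points, and none of these 3 passed an exact permutation test over 792 relabellings (p = 0.266, 0.723 and 0.355, n = 7 and 5). The diet difference of the sites was also set against that of the CpG-poor sites above 80% in AL-young mice, whose AL-old and CR-old means were 88.4 ± 4.15% (SD, n = 7) and 89.9 ± 2.48% (n = 5). The 2 classes differed in their diet difference by -0.83 points (exact permutation p = 0.383), and by 1.78 points on the raw scale (p = 0.491). The diet difference in females minus that in males was -1.504 points (exact permutation of sex labels within diets, p = 0.643, over 210 relabellings). It was 10.3 points on the raw scale (exact permutation p = 0.233), and positive without AL-old 27 or CR-old 02.

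The old groups differed in how far individual sites moved from the intermediate range. Of the 828 sites, between 91.4 and 96.6% stayed inside 20 to 80% in the AL-young mice, which the rule favours. In AL-old mice this share ran from 42.0% in AL-old 14 through a median of 64.3% to 91.9% in AL-old 25. In CR-old 02, 06, 19, 20 and 22 it was 91.7, 74.8, 90.7, 84.7 and 80.4%. The groups overlapped only through AL-old 25. CR-old mice kept 21.9 points more of the sites inside the range (two-sided exact permutation p = 0.0265, n = 7 and 5), and 25.8 points more on the raw scale (p = 0.0152). The p-value passed 0.05 without CR-old 02, 19 or 20 (0.0515 to 0.0576). Without the 3 farthest AL-old mice it was 0.143, for a difference of 10.7 points.

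The 3 AL-old mice with the most sites outside the range were AL-old 13 (225 below 20% and 234 above 80%), AL-old 14 (206 and 274) and AL-old 27 (233 and 130). AL-old 13 and 14 are high-correction females and AL-old 27 is a low-correction male. In all 3 of them 78 sites were below 20% and 56 were above 80%. Sites inside 20 to 80% in every mouse of a group numbered 674 for the 5 AL-young, 490 for the 5 CR-old and 70 for the 7 AL-old mice. The AL-old group has more mice, which by itself lowers its count. In all 17 mice 51 sites stayed inside.

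**Figure D2:**
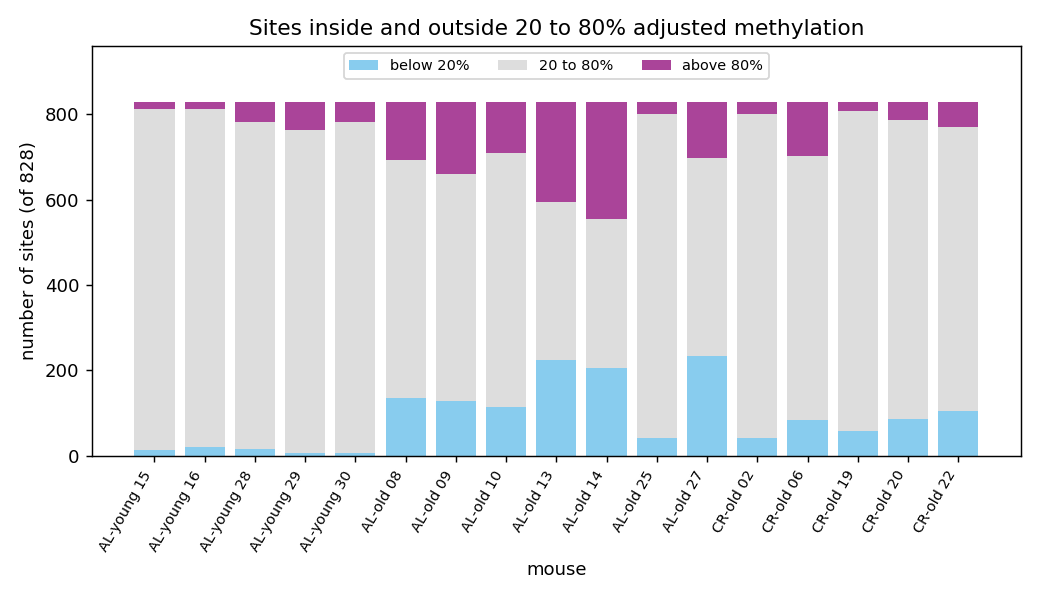
Number of the 828 sites with adjusted methylation below 20%, from 20 to 80% and above 80%, 1 stacked bar per mouse. AL-old 13, 14 and 27 have the most sites outside the middle range, and AL-old 25 resembles the AL-young mice with 40 sites below and 27 above.

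Old AL mice also differed more from each other than CR-old mice did. The distance between 2 mice was the mean absolute difference over the 828 sites. It averaged 4.81 points among AL-young mice (10 pairs), 21.3 points among AL-old mice (21 pairs, range 10.7 to 28.6) and 10.3 points among CR-old mice (10 pairs, range 5.87 to 16.3). CR-old mice were thus 10.9 points closer to each other (two-sided exact permutation p = 0.00505, n = 7 and 5). On the raw scale the difference was -11.7 points (exact permutation p = 0.00253), and leaving out any single mouse kept p between 0.00303 and 0.0212. Without AL-old 13, 14 and 27 the difference was -5.28 points (exact permutation p = 0.0714, n = 4 and 5). Within the low-correction mice AL-old 25 and 27 were 24.8 points apart and the 4 CR-old mice averaged 7.11 points, a design of 15 relabellings whose smallest p is 0.0667. The 5 high-correction AL-old mice averaged 19.1 points. On the raw scale the median SD of a site was 19.5 points in AL-old and 8.21 points in CR-old mice, beside a median counting SD of 2.30 and 2.07 points.

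The young-methylated CpG-poor sites showed the same order at smaller distances, 10.1 points among AL-old and 4.70 among CR-old mice. The diet difference in distance was larger at the intermediate sites by 5.56 points on the adjusted scale (exact permutation p = 0.00884, n = 7 and 5). On the raw scale it was larger by 3.24 points and did not pass (exact permutation p = 0.112).

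Which mice resembled each other followed the correction in part as well as the diet. Over the 828 sites CR-old 06 correlated with AL-old 08, 09 and 10 at Pearson r = 0.86, 0.85 and 0.77 and with the other CR-old mice at 0.59 to 0.73. CR-old 06 and AL-old 08, 09 and 10 are all high-correction females, and their likeness cannot be told apart from correction or sex. With AL-old 13 and 14, also high-correction females, CR-old 06 correlated at only 0.60 and 0.46. AL-old 25 correlated with the AL-young mice at 0.87 to 0.92, and CR-old 19, 20 and 22 with each other at 0.92 to 0.94. AL-old 13, 14 and 27 correlated with each other at 0.45 to 0.53. These values are descriptions over sites that share each mouse's library and factor.

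**Figure D3:**
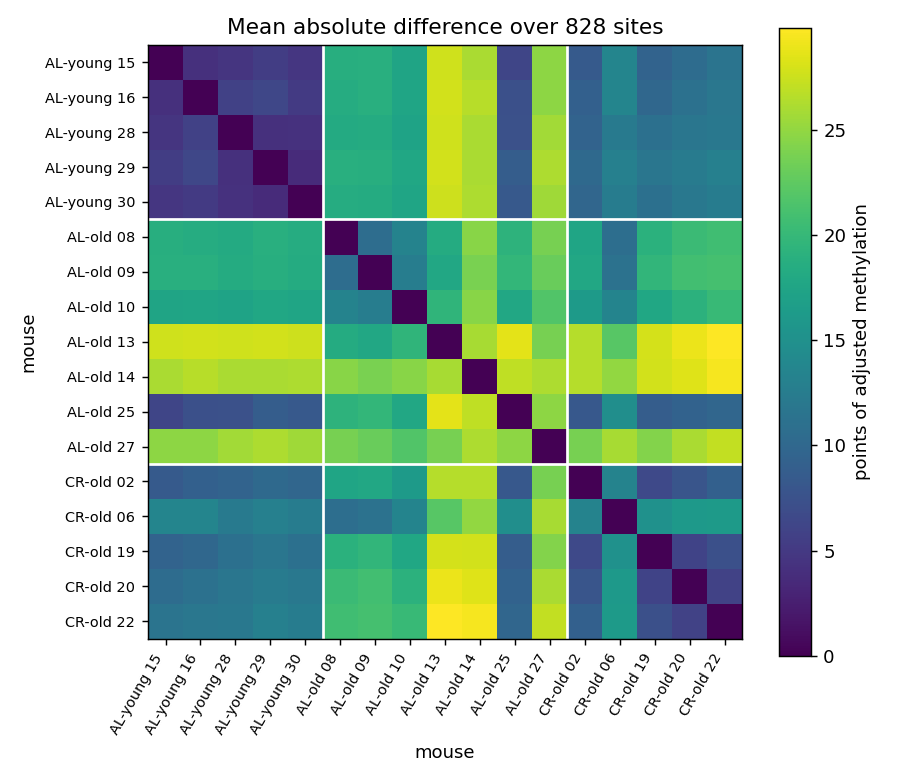
Mean absolute difference in adjusted methylation (points, colour scale from 0) over 828 sites between each pair of the 17 mice, with white lines between AL-young, AL-old and CR-old. AL-young pairs average 4.81, AL-old pairs 21.3 and CR-old pairs 10.3 points, and AL-old 13 is nearest to AL-old 09, 08 and 10 (17.9, 18.3 and 19.5 points).

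Single sites were then compared between diets with edgeR's quasi-likelihood test on methylated and unmethylated reads, with the correction factor as an offset and Benjamini-Hochberg adjustment over all 15742 sites. A call needed an adjusted p under 0.05 and at least 2 points between the adjusted group means. In CR-old mice 79 of the 1185 sites (6.67%) were called higher, against 1.22% of all sites tested. Another 95 (8.02%) were called lower, against 6.96% of all sites. Of the young-methylated CpG-poor sites 2.13% were called higher and 8.16% lower. The AL-young mice, which chose the sites, were in this fit and shared its estimate of the spread. With only the 12 old mice in the fit, 48 of the 1185 sites were called higher and 53 lower. On raw counts without the offset the split was 102 higher and 25 lower, in place of 79 and 95. All 79 and 25 of the 95 were shared between the fits. Leaving out 1 mouse gave 36 to 130 higher and 44 to 157 lower. The counts moved by over 1.5 times without CR-old 19 (46 and 50), 20 (42 and 44) or 22 (36 and 45) and without AL-old 25 (130 and 157). Without AL-old 13, 14 and 27 they were 36 and 52, and with the correction as a covariate 4 and 0 (106 and 80 at an unadjusted p under 0.05). In the low-correction mice, with 2 AL-old mice, edgeR called 0 and 0, and at an unadjusted p under 0.05 there were 181 higher and 162 lower. The median log2 odds ratio over all 15742 sites was -0.49 with the offset and -0.06 without, and that of the 1185 sites lay 0.40 and 0.58 above it.

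The called sites are set beside the young group as a description, since a call requires the old groups to lie apart and the AL-young values chose the sites. At the 79 sites called higher the median of the group means was 58.8% in AL-young, 24.1% in AL-old and 60.4% in CR-old mice, and the AL-old mean lay below the AL-young mean at 78, as it did at 679 of all 1185 sites. At the 95 called lower these medians were 62.2, 79.8 and 41.2%. There the AL-old mean was above the AL-young mean at 88 and the CR-old mean below it at 83, as it was at 815 of all 1185. AL-old 25 stood with the CR-old mice at both groups of called sites, at 55.3% over the 69 complete sites called higher and 49.1% over the 58 called lower. The other AL-old mice ran from 12.6 to 26.6% and from 72.8 to 89.9%.

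The groups did not overlap at 8 of the 828 sites with CR-old above AL-old (0.966%, against 0.184% of all 11949 complete sites) and at 11 with CR-old below (1.33%, against 1.37%). Of these, 6 and 10 were also called. On the adjusted and raw scales together the groups were apart at 1 site above (0.121%, beside 0.0335% of all complete sites) and 1 below (0.121%, beside 0.192%). The old groups overlapped on the raw scale at 9 of the 11 sites named next, all but the intergenic site and Mef2b. At Rcsd1 the raw AL-old maximum was 30.9% and the raw CR-old minimum 22.4%, and at Scml4 the raw AL-old minimum was 19.6% and the raw CR-old maximum 30.9%. The farthest was an intergenic site at chr5:147490692-147490697. It read 41.6, 45.1, 32.0, 41.5 and 47.3% in the AL-young mice, 8.7% (lowest), 28.2% (median) and 51.5% (highest) in AL-old, and 60.8, 55.6, 82.5, 85.3 and 94.4% in CR-old 02, 06, 19, 20 and 22. CR-old mice were thus above both other groups, with 3.54 ± 0.69 (SE) as the log2 odds ratio between the diets (edgeR adjusted p = 0.00076). A neighbour 285 bp away moved with it, at 38.5% in AL-old and 82.4% in CR-old mice.

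The site in an intron of Rcsd1, which encodes a protein that binds actin capping protein, showed the same order (chr1:167593070-167593075). AL-young mice had 34.0, 38.6, 32.0, 33.9 and 39.4%, AL-old mice 2.7% (lowest), 21.5% (median) and 31.9% (highest), and CR-old mice 48.9, 34.3, 64.7, 69.99 and 82.8% (log2 odds ratio 3.45 ± 0.72, edgeR adjusted p = 0.00108). The 3 lowest AL-old values, from 2.7 to 4.7%, were those of AL-old 13, 14 and 27. Ndst1, which encodes an enzyme of heparan sulphate synthesis, had an intron site at chr18:60869075-60869080 with 31.0, 24.5, 29.2, 30.7 and 30.8% in AL-young mice. AL-old mice had 6.4, 15.4 and 27.9% (lowest, median, highest) and CR-old mice 41.1, 31.9, 51.0, 64.1 and 70.3% (edgeR adjusted p = 0.00311). At Rcsd1, Ndst1 and the intergenic site all 4 low-correction CR-old mice were above every AL-young mouse.

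Cmah and Ncf1 held the other sites called higher. Cmah encodes the hydroxylase that makes the sialic acid Neu5Gc, and its site lies 109 bp from a transcription start at chr13:24508981-24508986. It had 29.6, 28.5, 33.2, 30.3 and 30.0% in AL-young, 2.8, 30.2 and 34.9% in AL-old and 40.8, 36.8, 43.2, 55.2 and 64.0% in CR-old mice (edgeR adjusted p = 0.038). Ncf1, the p47phox subunit of the phagocyte NADPH oxidase, had an intron site at chr5:134702997-134703002. Its AL-young levels were 33.5, 36.2, 29.9, 32.9 and 34.5%, its AL-old levels 2.6, 17.1 and 23.0% and its CR-old levels 32.5, 26.9, 35.9, 42.2 and 35.6% (edgeR adjusted p = 0.035). CR-old mice thus lay near the AL-young level at this Ncf1 site and above it at Cmah. At a second Ncf1 site, 322 bp away, CR-old mice were below the AL-young mice (24.3 to 35.8 against 49.3 to 56.8%). That site was not called (edgeR adjusted p = 0.217). The calls at Cmah and Ncf1 were fragile, lost in 13 and 12 of 26 alternatives. Among these were leaving out AL-old 13 or 14 or any of the CR-old mice 02, 19, 20 and 22 (Cmah also AL-old 27, Ncf1 also AL-young 30).

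Sites called lower in CR-old mice included genes of blood cells. Scml4, a Polycomb-group relative, had an intron site at chr10:42619645-42619650 with 48.2, 54.4, 48.4, 51.7 and 50.0% in AL-young mice. AL-old mice had 35.9, 62.6 and 86.2% (lowest, median, highest) and CR-old mice 28.4, 31.7, 20.9, 10.8 and 6.9% (log2 odds ratio -3.25 ± 0.67, edgeR adjusted p = 0.000924). Csf1r, the receptor for macrophage colony-stimulating factor, had a site at chr18:61291493-61291498. It read 62.3, 67.9, 55.8, 60.6 and 64.4% in AL-young, 49.6, 60.6 and 77.0% in AL-old and 32.1, 42.3, 26.9, 18.99 and 15.9% in CR-old mice (log2 odds ratio -2.15 ± 0.59, edgeR adjusted p = 0.0119). Here the AL-old mice stayed around the AL-young range and the CR-old mice lay below it, and the call was lost without CR-old 20 or 22. The site lies in an exon where Hmgxb3 is also annotated.

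Lima1, which encodes an actin-bundling protein, had an intron site at chr15:99634196-99634201, 642 bp from the start of an annotated U6 RNA, by which it counted as a promoter. It was low in young mice, at 23.8, 22.8, 22.2, 27.9 and 23.2%, and spread widely in AL-old mice, at 24.8, 44.6 and 89.0%. CR-old mice had 20.3, 16.2, 18.8, 13.2 and 11.1% (edgeR adjusted p = 0.00316). Mef2b, a transcription factor of germinal centre B cells, had a coding-exon site at chr8:72690070-72690075, which 2310045N01Rik overlaps. AL-young mice read 50.9, 48.5, 52.6, 57.3 and 52.1%, AL-old mice 56.6, 81.9 and 96.7% and CR-old mice 47.2, 50.5, 37.5, 45.9 and 50.6% (edgeR adjusted p = 0.00587), so the old CR mice lay next to the young ones.

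The promoter site of Lypd3, a GPI-anchored surface protein (chr7:25421554-25421559), had 54.2, 49.7, 53.3, 51.6 and 52.8% in AL-young, 53.6, 80.9 and 85.0% in AL-old and 32.5, 52.2, 34.6, 27.2 and 45.5% in CR-old mice (edgeR adjusted p = 0.0127). This call was lost without CR-old 20. The intron site of the adhesion gene Sdk2 had group means of 46.9, 68.2 and 28.3% (edgeR adjusted p = 0.00335). All 11 named differences kept their sign on raw counts and in every other fit, but all 11 missed the threshold in the low-correction mice. With only the 12 old mice, a fit without the mice that chose the sites, 7 kept their calls. Cmah, Ncf1, Csf1r and Lypd3 did not (edgeR adjusted p = 0.0881, 0.111, 0.0596 and 0.0594). With the correction as a covariate the intergenic site and Rcsd1 kept their calls and the other 9 did not, and those at Sdk2, Lima1, Mef2b, Csf1r and Lypd3 missed it without the offset.

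**Figure D4:**
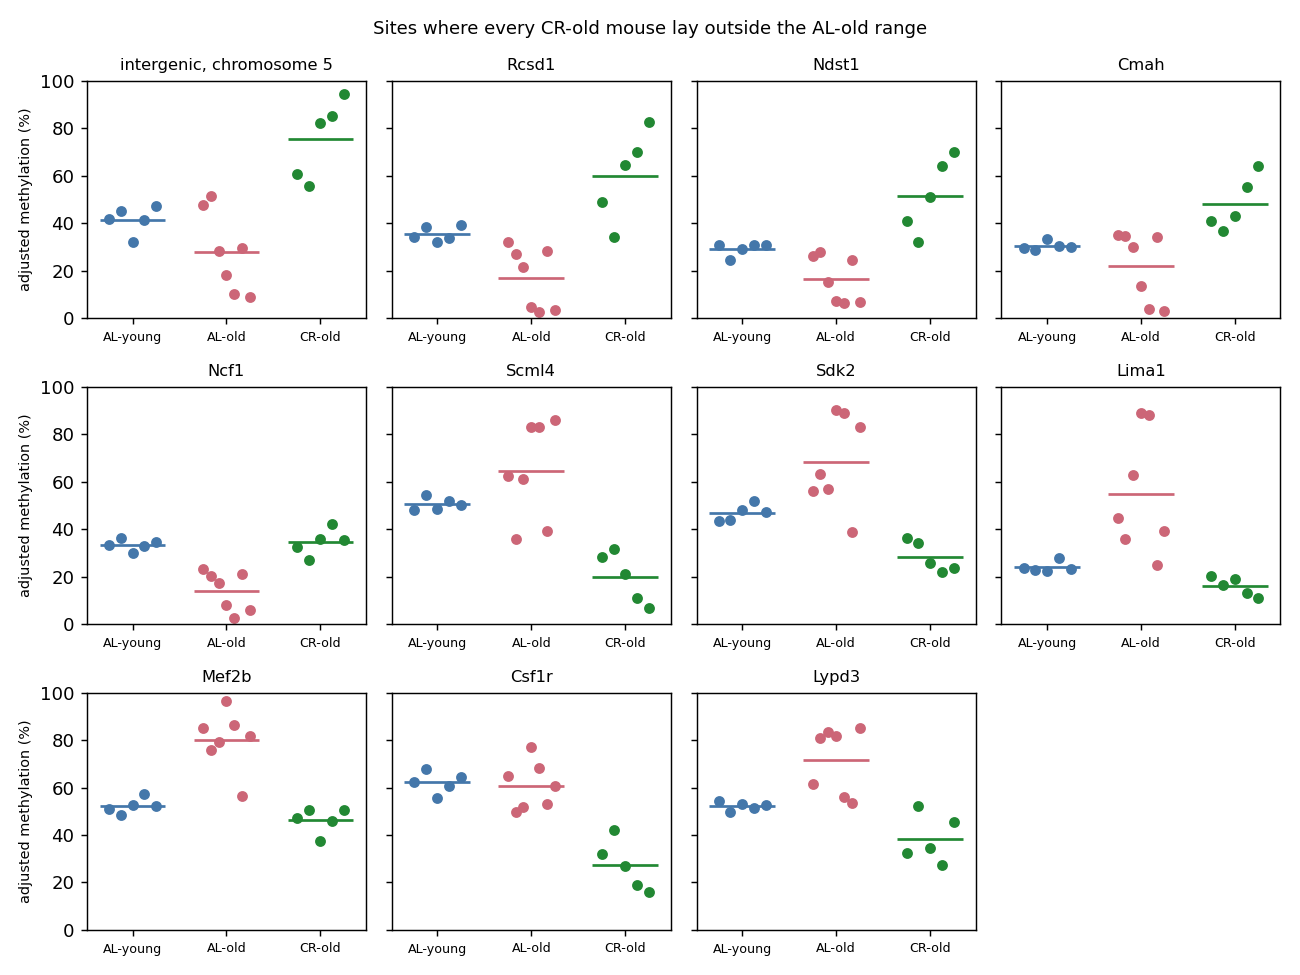
Adjusted methylation in percent at 11 sites called between the old groups where no CR-old mouse overlapped the AL-old range on this scale (9 overlap on the raw scale), 1 point per mouse and a line at each group mean. At the first 5 panels CR-old mice are above AL-old mice, as at Rcsd1 (17.01 against 60.1%), and at the last 6 below, as at Scml4 (64.5 against 19.7%).

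AL-old mice are set beside AL-young mice without a test, since the young values chose the sites. On both scales the AL-old range lay wholly below the AL-young range at 32 of the 828 sites (3.86%, beside 0.912% of all 11949 complete sites) and wholly above it at 0, beside 1.87% of all. All 12 old mice were below every AL-young mouse on both scales at 14 sites (1.69%, beside 0.351%) and above at 0, beside 0.577%. Nothing is read from these shares. The first of the named sites lies in an intron of Adamts14, a procollagen peptidase, 700 bp from the start of AC123530.1 (chr10:60664453-60664458). AL-young mice had 65.1, 68.6, 64.3, 69.7 and 71.9%, AL-old mice 0.9, 4.05 and 52.4% (lowest, median, highest) and CR-old mice 20.7, 19.1, 17.1, 11.46 and 5.5%. The highest AL-old value was again AL-old 25. Both old groups were low there.

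The other 5 named sites were likewise chosen for low AL-old values, which by itself favours higher values in the other groups. In the transcription factor gene Nfix an intron site (chr8:87310335-87310340) had 76.0% in AL-young, 28.4% in AL-old and 63.5% in CR-old mice. An intergenic site at chr15:82060290-82060295 had 58.8, 13.2 and 69.4%, with CR-old values of 64.5, 41.3, 74.2, 77.7 and 89.4% against at most 41.4% in AL-old 25. An intron of Emid2, a collagen gene, had 72.7, 29.2 and 64.1%. An intergenic site at chr7:14161211-14161216 had 77.4, 30.1 and 58.1%, whereas an intron site of C130039O16Rik was low in both old groups, at 55.4, 15.9 and 24.05%.

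Genes of blood lineages were read from fixed lists. In the list of neutrophil and monocyte genes 8 of 39 retained sites (20.5%) were intermediate, in 6 of 16 genes with a site. In the list of T cell and NK cell genes it was 14 of 60 (23.3%), in 9 of 15 genes. Both shares are beside 7.53% of all retained sites. Only CpG-poor sites can meet the rule, and 23 of the 39 and 41 of the 60 were CpG-poor. Of all CpG-poor retained sites 17.3% were intermediate. Of B cell genes 1 of 26 sites (13 of them CpG-poor) was intermediate, and of erythroid and platelet genes 3 of 36 (25 CpG-poor). Shared leukocyte signalling genes had 7 of 131 (49 CpG-poor), imprinted genes 5 of 55 (18), and DNA methylation and chromatin genes 6 of 158 (48).

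Neutrophil and monocyte genes had 2 sites called higher and 2 called lower in CR-old mice among their 8 intermediate sites, beside 6.67 and 8.02% of all 1185. Their median log2 odds ratio was 0.60, beside -0.08 over the 1185 sites and -0.49 over all sites tested. Higher were 1 of the 2 sites of Ncf1 and the site of Cyba, the p22phox subunit of the same oxidase. Lower were both sites of Csf1r, of which the second was lost in 14 of 26 alternatives. Among these were leaving out AL-old 08, 09 or 13 or any CR-old mouse but CR-old 06. Cyba (chr8:124951690-124951695) had 70.6, 71.8, 76.1, 78.2 and 77.0% in AL-young, 5.9, 32.2 and 76.4% in AL-old and 65.9, 72.8, 75.2, 83.7 and 92.3% in CR-old mice (log2 odds ratio 3.57 ± 0.73, edgeR adjusted p = 0.000924). AL-old 25 was the high AL-old mouse, and the groups overlapped through it. The mean over the 8 sites was 44.0 ± 2.14% in AL-young, 29.3 ± 5.43% in AL-old and 31.1 ± 1.56% in CR-old mice. Prtn3, which encodes the neutrophil proteinase 3, had 20.6 to 32.9%, 9.46 to 58.0% and 6.04 to 23.5%. Ltf, which encodes the neutrophil protein lactoferrin, had 40.4 to 54.9%, 24.2 to 85.3% and 42.6 to 55.0%, and neither site was called.

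T cell and NK cell genes had 1 site called in each direction, with a median log2 odds ratio of -0.14 over 14 sites. Tcf7, the T cell factor TCF-1, was called lower at chr11:52090210-52090215, where AL-young mice had 44.2, 30.0, 57.9, 50.6 and 43.7% and CR-old mice 41.9, 68.6, 28.6, 26.0 and 25.1%. The 6 AL-old mice with enough reads had 46.1 to 97.2%. Its second site, 284 bp away, was not called, with means of 60.2% in AL-young, 74.6% in AL-old and 76.0% in CR-old mice. The call at the first Tcf7 site was lost with the correction as a covariate, in the low-correction mice and with limma in place of edgeR. Dgka, a lipid kinase that dampens T cell receptor signals, was called higher at 1 of 2 sites, a call lost in 19 of 26 alternatives, among them leaving out any AL-young or CR-old mouse other than CR-old 06, or AL-old 09, 10, 13 or 14. At the deepest sites of the list, Gata3, Tbx21 and Zfpm1, adjusted p-values from edgeR were 0.635, 0.546 and 0.376. Tbx21, which encodes T-bet, had 35.4 to 46.3% in AL-young, 37.8 to 69.7% in AL-old and 32.6 to 47.6% in CR-old mice. The CD3 genes Cd3g and Cd247 were not called either.

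The only B cell site, in Bach2, a repressor that holds B cells before plasma cell differentiation, was called lower in CR-old mice (chr4:32667309-32667314). It read 53.1, 60.8, 50.6, 57.5 and 62.2% in AL-young, 43.4, 64.8 and 94.2% in AL-old and 35.8, 50.4, 31.3, 28.2 and 20.4% in CR-old mice (edgeR adjusted p = 0.012). The Bach2 call was lost in 5 of 26 alternatives. These were leaving out CR-old 22, leaving out AL-old 13, 14 and 27 together, counts without the offset, the correction as a covariate, and the low-correction mice. In shared signalling genes 2 of 7 sites were called, both higher and both in the promoter of Tapbp, which encodes the antigen-loading protein tapasin. The site at chr17:34055568-34055573 had 73.2, 73.9, 81.2, 84.4 and 82.1% in AL-young, 5.2, 30.5 and 71.7% in AL-old and 59.5, 72.8, 65.6, 66.8 and 74.7% in CR-old mice (edgeR adjusted p = 0.0165). This call was lost in 5 of 26 alternatives, among them leaving out CR-old 22. Its neighbour 217 bp away was lost in 7, among them leaving out AL-old 14 or CR-old 20 or 22. Both were also lost without AL-old 13, 14 and 27, with the correction as a covariate, in the low-correction mice and with limma in place of edgeR. Zbtb22 is also annotated at both sites. None of the 3 erythroid and platelet sites (in Ank1 and Zfpm1, both sites of the last also on the T cell and NK cell list), the 5 imprinted or the 6 chromatin sites was called by edgeR. How far the share of each cell type moved with these results was not tested.

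**Figure D5:**
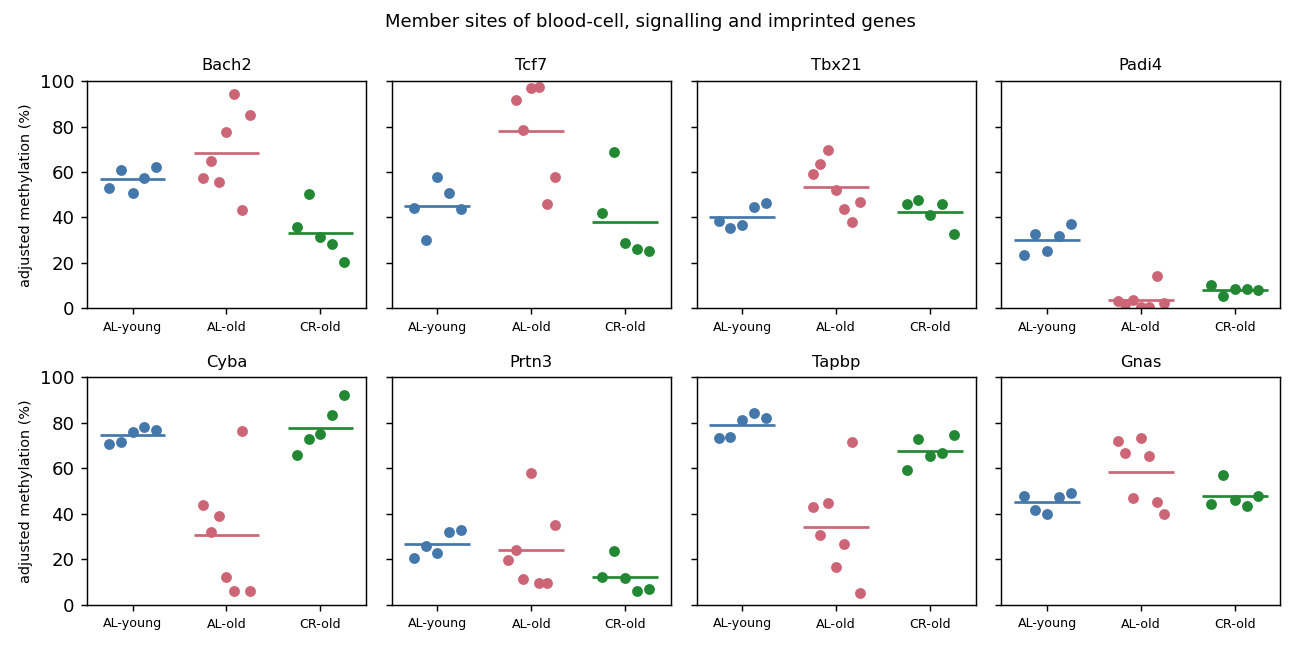
Adjusted methylation in percent at 1 site each of 8 genes from the fixed lists, 1 point per mouse and a line at each group mean. Cyba and Tapbp are low in most AL-old mice and Bach2 and Tcf7 are low in most CR-old mice, Padi4 is low in both old groups, and at Gnas most AL-old mice are above the AL-young mice on this adjusted scale.

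Gnas gave a reading of the 2 scales at a gene with a copy-specific level. At its coding-exon site chr2:174125152-174125157 raw methylation was 48.6 to 64.0% in the 6 high-correction mice and 45.2 to 55.9% in the other 11. After adjustment these ranges were 66.4 to 78.9% and 45.9 to 54.2% and no longer overlapped. At the site 189 bp upstream raw medians were 43.6 and 45.6% and adjusted medians 66.3 and 45.4%. At the third site, chr2:174123792-174123797, they were 61.2 and 67.8% raw and 76.1 and 67.3% adjusted. The high and low groups were thus closer on the raw scale at all 3 sites, as for the standard Gfp 1, and unlike the standards Kan 1 and Luc 1. Which scale is nearer the truth at the other sites was not tested.

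Sites near each other tended to share their pattern over mice, though no pairs farther apart are given here for comparison. Of 280 pairs of neighbouring sites within 1000 bp, 176 had a Pearson r above 0.5 over the mice, the median was 0.68 and 36 were below 0. In 27 pairs both sites were called between diets, always in the same direction, and in 36 pairs only 1 was. The levels themselves differed between neighbours, by a median of 15.1 points in AL-young mice. The closest pair lay 28 bp apart (chr11:95051268 and 95051296) with AL-young means of 40.9 and 24.8% and an r of -0.10 over 14 mice. A pair 76 bp apart in Ncdn had 58.9 and 42.9% (r = 0.57), and a pair 79 bp apart on chromosome 1 had 28.6 and 20.9% (r = 0.95 over 16 mice).

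The 6 sites with the smallest range over 17 mice, chosen for that range, spanned 20.8 to 22.6 points. They lay in Ssh3, a cofilin phosphatase (AL-young 22.8%, AL-old 12.8%, CR-old 13.6%), in Pla2g2c (71.2, 74.9 and 72.1%), in the epidermal transcription factor gene Grhl3 (31.9, 36.7 and 31.0%), in Prrt3 (23.3, 8.58 and 15.1%), in Cdh23, a cadherin of hair cells (74.0, 68.8 and 75.8%) and in Efnb3, an ephrin (24.6, 18.8 and 19.5%). The AL-old means at Ssh3 and Prrt3 were well below the AL-young means, within a range limited by the low starting level. None of the 6 was called between diets by edgeR.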

How the data were processed

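Whole-blood DNA of 17 mice was cut by SmaI, then XmaI, with spiked standards. The authors mapped reads to mm9 (the labels name Bowtie2 and SAMtools, versions not given in the sources used here) and deposited, for each of 173449 CCCGGG sites, counts of methylated, unmethylated and all reads. The authors also deposited raw methylation in percent, 100 times methylated reads plus 0.5 over all reads plus 1, and adjusted percent. Comparing both gave 1 odds factor per mouse. Groups came from the labels.

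Values under 100 reads were dropped. Annotation used NCBIM37 and GENCODE M1. Promoters ran from 1000 bp before to 500 bp after a start. CpG islands were at least 200 bp, GC at least 50% and CpG ratio at least 0.6.

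Group means were compared by exact permutation. Sites were tested with edgeR 4.0.16 (R 4.3.3; quasi-likelihood, all 17 mice, log factor as offset, common dispersion), so that test and level share 1 scale. limma 3.58.1 on logits was an alternative. scipy 1.17.1 with numpy 2.4.6 gave the permutation tests, pandas 2.3.3 under Python 3.11.15 the tables, matplotlib 3.10.9 the plots. The site test was checked on simulated data. No rate of false calls is drawn from that check, since it did not cover groups that vary unequally. Here the median raw SD of a site was 3.46 points in AL-young, 19.5 in AL-old and 8.21 in CR-old mice.

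The sites, lists, motifs and tests were chosen with earlier results of these data known. Named diet sites were called, complete and without overlap, up to 6 in each direction, at most 1 per gene or 10 kb. Age sites had every AL-old mouse outside the AL-young range on both scales. Also named were the 6 steadiest sites, the 3 deepest per list, the 3 closest pairs and 2 sites beside each limit. Other list sites, and the test of the share of sites inside 20 to 80%, were added after values were seen. No label names a batch or a separate collection beyond 1 sample per mouse. The paper names different Illumina sequencers at different centres, and its text does not say which mice ran on which. Whether sequencer or centre goes with group or correction factor cannot be told.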

Additional observations from a re-analysis of the deposited data

Results flagged for a closer look

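In 42 groups of values, 3 samples stood far from the other mice of their group by Dixon's test, which by chance happens in about 1 group in 20. The mean over the 828 sites was 43.2% in AL-old 27, below the other 6 AL-old mice. Ndst1 read 24.5% in AL-young 16, and Lima1 read 27.9% in AL-young 29. No explanation was tested.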

How the results depend on the processing

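The greater distance among AL-old mice kept its direction in every setting tried, but missed the threshold in low-correction mice (-17.7 points) and without AL-old 13, 14 and 27 (-5.28, a choice made after seeing the data, as was the test of sites inside 20 to 80%). The share inside 20 to 80% missed it in the same 2 settings (12.8 and 10.7 points) and without CR-old 02, 19 or 20, and ran from 18.5 to 26.8 points leaving out 1 mouse. The diet difference in mean level passed in no setting. It was -0.38 and -0.58 points with coverage minimums of 20 and 500, -0.34 with a young window of 30 to 70%, -0.025 without the 3 mice and -0.44 to 1.23 leaving out 1. The class difference was 1.78 points raw and 0.48 at 500 reads. The sex difference was 10.3 raw and -5.57 to 2.56 leaving out 1. The age difference was -13.0 raw. Sites called higher and lower (79 and 95) numbered 102 and 25 without offset, 4 and 0 with a correction covariate (106 and 80 at unadjusted p under 0.05), 0 and 0 in low-correction mice, 48 and 53 in old mice only, 48 and 54 with sex, 48 and 47 by limma, and 36 and 52 without the 3 mice. Leaving out 1 mouse they ran from 36 to 130 and from 44 to 157, lowest without CR-old 22 and 20 and highest without AL-old 25, and 46 and 50 without CR-old 19. The causes were not tested. No paired analysis was possible because mice of different groups share no replicate number.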

Other observations

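At some sites both old groups lay on the same side of the young mice, whose values chose the sites, so this is a description. Every one of the 12 old mice was below every AL-young mouse at 14 of the 828 sites on both scales (1.69%, beside 0.351% of all 11949 complete sites), and above at 0, beside 0.577%. Padi4, the neutrophil enzyme that citrullinates histones, fell in this group (chr4:140327116-140327121). AL-young mice had 23.4, 32.7, 25.2, 31.7 and 37.1%, AL-old mice 0.5, 2.6 and 14.4% (lowest, median, highest) and CR-old mice 10.4, 5.3, 8.5, 8.5 and 7.9%. The promoter site of Ncf1 had AL-young values of 49.3 to 56.8%, AL-old values of 2.6 to 39.3% and CR-old values of 24.3 to 35.8%. Tnfsf8, which encodes the CD30 ligand of activated lymphocytes, had 62.2 to 67.2%, 8.0 to 52.9% and 43.5 to 53.3%. The promoter site of Rasgrp4, a Ras activator of mast cells and neutrophils, had 46.2 to 55.7%, 3.3 to 41.3% and 25.0 to 41.5%, and it was 1 of the 2 among the 14 also called higher in CR-old mice by edgeR. In the opposite direction, on the adjusted scale, stood 1 site, in an intron of Ltbp3, a binding protein of latent TGF-beta, with 38.1 to 57.0% in AL-young, 59.8 to 89.7% in AL-old and 80.6 to 89.7% in CR-old mice. These sites were named after their values were seen.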
